A study of Danio rerio with 18 samples.

Results

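A set of 10 genes of the red blood cell lineage were followed in laser-captured zebrafish brain tissue after spinal cord injury. They were taken by name, with earlier results of these data known: alas2, gata1a, nt5c2l1, epb41b, hbaa1, hbba2, hbae3, hbbe2, slc4a1a and cahz. The array's annotation assigned 11 probe sets to these genes, of 15502 probe sets tested in all and 10795 with a single gene symbol. Of the 11 probe sets 8 were above the floor on every array, 1 was at the floor on every array, and gata1a and the second hbae3 probe set were at the floor on some.

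The 18 arrays, 1 per sample, held RNA of tissue cut by laser from the NMLF, the nucleus of the medial longitudinal fascicle, a cluster of midbrain neurons that project to the spinal cord. Zebrafish (Danio rerio) with a transected spinal cord and sham-operated fish were sampled 4 h, 12 h and 11 d after surgery, with 3 arrays for each surgery and time. No strain, age, sex or transgene is given in the labels, and all groups share the laser capture, column purification and RNA amplification. Which animal gave which sample, and whether animals were pooled, is not in the labels, so a p-value here reflects spread among samples that may be technical. Values below are signals after normalization across arrays with a floor of 16, differences are on the log2 scale with the standard error (SE) of a limma model over all 18 arrays, and a probe set is called where its Benjamini-Hochberg adjusted p over all 15502 is under 0.05.

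Zebrafish red cells keep their nucleus in the circulation, and they mature from precursors in the kidney marrow. Precursors switch on the transcription factor Gata1, build heme through a chain of enzymes that starts in the mitochondrion, and fill with globin chains that carry the heme. A flexible skeleton under the membrane and the anion exchanger band 3 complete the cell, which works with carbonic anhydrase to carry carbon dioxide. A captured piece of brain holds capillaries and the blood cells in them. In such bulk samples, fewer red cells in the captured tissue and less RNA of a gene per red cell cannot be told apart.

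The captured tissue carried both neuronal and red cell RNA. All 13 neuronal marker genes measured were above the floor on all 18 arrays. Of 15 listed red cell marker genes 12 were measured, 8 of them among the 10 genes described here, and none of the 12 was at the floor on every array. The GAPDH control ratio of 3′ to 5′ signal, a measure of RNA and cDNA integrity, was 3.15 to 5.40 on the 6 arrays of 12 h and 1.39 to 2.88 on the other 12. Between surgeries at 11 d it overlapped, 1.68 to 2.88 in transected and 1.39 to 2.83 in sham samples. The actin control ratio was 4.58 to 19.9 at 4 h and 64.8 to 524 at 12 h. At 11 d it was 191 to 240 on 5 of the 6 arrays but 2.65 on sham replicate 3, so that array stood apart from its group. A lower 3′ to 5′ ratio stands for more intact material, and that array had the lowest GAPDH ratio and the lowest actin ratio of all 18. The 5′ actin signal that the actin ratio divides by was below 16 on 14 of 18 arrays. The part of these ratios in differences between times, or in results that turn on that array, was not tested.

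At 11 d the heme synthesis gene alas2 was 4.90-fold lower (a level of 45.3 against 222) in transected samples than in sham samples and was called, while the adult globins hbaa1 and hbba2 overlapped between the groups. All 3 transected arrays lay below all 3 sham arrays for 4 of the 11 probe sets (alas2, gata1a, nt5c2l1 and epb41b), where 2.99% of all probe sets did so. Limma called 1 of the 11 lower, where 0.0129% of all probe sets were. Of the 11 means 10 were lower, against 43.5% of all, where 38.9% were higher and the rest had no change. Among the 10 was the second hbae3 probe set (-0.078), which lay at or near the floor at 11 d. At an unadjusted limma p under 0.05, 5 of 11 were lower, against 2.19% of all. The median log2 change of the 11 was -0.73, and that of all probe sets was 0. Since the genes were chosen with earlier results of these data known, these counts and shares are descriptions and no independent test of the set.

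**Figure D1:**
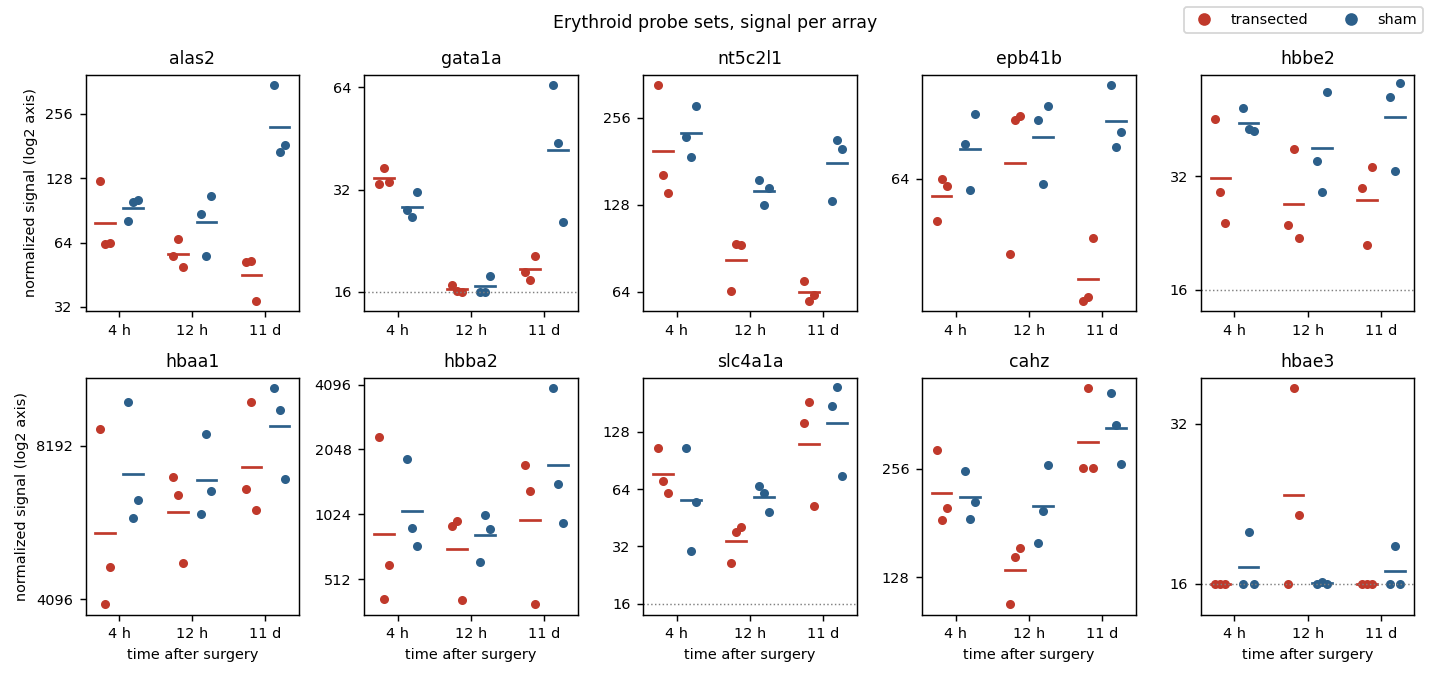
Normalized signal (vertical axis, log2 scale) of 10 erythroid probe sets on each of 18 arrays, by time after surgery, with transected arrays in red to the left of sham arrays in blue. Bars are geometric means of 3 arrays and the dotted line is the floor of 16. At 11 d alas2 lies between 34.2 and 52.4 on transected arrays and between 171 and 349 on sham arrays.

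The erythroid 5-aminolevulinate synthase alas2 makes the first and rate-limiting step of heme synthesis in red cells. At 4 h its signal was 124, 63.2 and 63.8 in transected samples and 81.1, 99.1 and 101 in sham samples. At 12 h it was 55.2, 66.6 and 49.1 in transected samples and 86.7, 55.1 and 105 in sham samples. At 11 d it was 51.7, 52.4 and 34.2 in transected samples and 349, 171 and 184 in sham samples. The groups overlapped at 4 h and 12 h and were far apart at 11 d, where the 3 sham arrays were the highest of all 18. In ascending order the group levels were 45.3, 56.5 and 79.4 in transected samples at 11 d, 12 h and 4 h, followed by 79.5, 93.3 and 222 in sham samples at 12 h, 4 h and 11 d. Every neighbouring pair in this order overlapped except the last.

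The log2 difference of transected minus sham for alas2 was -2.29 ± 0.34 at 11 d (SE, 3 arrays each, limma adjusted p = 0.033, 95% interval -3.02 to -1.56). Since the groups did not overlap, any pairing of the samples had the lower value in the transected sample. At 12 h it was -0.49 ± 0.34 and at 4 h -0.23 ± 0.34, neither called. With same-numbered samples of the same time as a block the 11 d difference had an adjusted p of 0.24. The adjusted p was 0.0069 when the dimmest probe sets, those outside the brightest 10335, were also left out, which on its own gave 0.0034. Leaving out 1 array ended the call in 11 of 18 cases: the sham arrays of 4 h (replicates 1, 2 and 3: 0.058, 0.065 and 0.063), sham replicate 1 at 12 h (0.052), the transected arrays of 12 h (0.054, 0.063 and 0.066), the transected arrays of 11 d (0.074, 0.062 and 0.076) and sham replicate 1 at 11 d (0.091, with a log2 difference of -1.97). The difference stayed between -2.48 and -1.97 in all 18.

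The regulator gata1a, the transcription factor that directs red cell precursors, was dim throughout. At 4 h its signal was 33.2, 37.0 and 33.7 in transected samples and 27.8, 26.6 and 31.4 in sham samples. At 12 h it was 16.7, just above 16 and 16 in transected samples and 16, 16 and 17.8 in sham samples. The 11 d signal was 18.3, 17.4 and 20.4 in transected samples and 65.1, 43.8 and 25.8 in sham samples. The groups did not overlap at 4 h, when transected samples were higher, nor at 11 d, when they were lower, and at 12 h all 6 arrays were close to the floor. The log2 difference was 0.28 ± 0.23 at 4 h and -1.17 ± 0.23 at 11 d (adjusted p = 0.17 at 11 d), neither called. Without sham replicate 3 at 11 d, the lowest of its group, the 11 d difference was -1.52 with a limma adjusted p of 0.000498. Leaving out any other single array did not bring gata1a a call at 11 d. Sham replicate 3 at 11 d also has the actin ratio of 2.65 given above, the lowest and so the most intact of all arrays by this ratio.

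The 5′-nucleotidase gene nt5c2l1 belongs by its name to the cytosolic enzymes that remove phosphate from nucleotides. Its signal at 4 h was 332, 162 and 140 in transected samples and 220, 188 and 281 in sham samples. At 12 h it was 64.1, 93.8 and 92.6 in transected samples and 157, 127 and 147 in sham samples. Its 11 d signal was 69.8, 59.6 and 62.4 in transected samples and 132, 215 and 200 in sham samples. Transected arrays lay below all sham arrays at 12 h and 11 d and overlapped them at 4 h. The log2 difference was -0.21 ± 0.29 at 4 h, -0.80 ± 0.29 at 12 h (adjusted p = 0.91) and -1.49 ± 0.29 at 11 d (adjusted p = 0.17), none called. Without transected replicate 1 at 4 h, the array with 332, the 11 d limma adjusted p was 0.021. Leaving out any other single array did not bring nt5c2l1 a call at 11 d.

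The membrane skeleton gene epb41b encodes protein 4.1, which ties spectrin and actin to the red cell membrane. At 11 d its signal was 38.8, 39.3 and 50.2 in transected samples and 93.8, 72.8 and 77.4 in sham samples, with no overlap. At 4 h it was 53.8, 63.8 and 62.0 in transected samples and 73.7, 61.2 and 83.6 in sham samples, and at 12 h the ranges overlapped as well. The log2 difference at 11 d was -0.93 ± 0.21 (adjusted p = 0.28), and at 4 h and 12 h it was -0.28 ± 0.21 and -0.16 ± 0.21.

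The adult globins showed no such separation. The alpha chain gene hbaa1 gave 6746, 9964 and 6138 in transected samples and 10593, 9604 and 7030 in sham samples at 11 d. At 4 h it gave 8832, 4014 and 4747 in transected samples and 9964, 5897 and 6402 in sham samples, and at 12 h 7118, 6566 and 4815 in transected samples and 6006, 8624 and 6665 in sham samples. The ranges overlapped at every time, and its whole range over 18 arrays was 2.64-fold. That of the other adult globin, hbba2, was 9.98-fold and that of alas2 10.2-fold. Whether a signal as bright as that of hbaa1 is compressed on these arrays was not tested. The log2 difference of hbaa1 was -0.39 ± 0.31, -0.21 ± 0.31 and -0.26 ± 0.31 at 4 h, 12 h and 11 d, each with an adjusted p of 1, and the 95% interval at 11 d ran from -0.94 to 0.41.

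The beta chain gene hbba2 varied far more within groups, with a pooled within-group SD of 0.94 on the log2 scale, against 0.39 for hbaa1. At 11 d it gave 1741, 1320 and 394 in transected samples and 3929, 1410 and 933 in sham samples. At 4 h it gave 2332, 414 and 593 in transected samples and 1847, 889 and 730 in sham samples, and at 12 h 909, 951 and 411 in transected samples and 616, 1016 and 871 in sham samples. The groups overlapped at each time, and the log2 difference at 11 d was -0.84 ± 0.75 with a 95% interval of -2.46 to 0.79, which includes 0. That interval also includes the differences of alas2 (-2.29) and epb41b (-0.93), so it does not separate hbba2 from them. In all 3 same-numbered pairs hbba2 was nonetheless lower (-1.17, -0.095 and -1.24), and the replicate block gave an SE of 0.41 and a limma adjusted p of 0.75. How many of all probe sets were lower in all 3 pairs was not counted, which holds for hbbe2 and slc4a1a below too. Zebrafish carry close copies of both adult globin genes, hbaa2 and hbba1, which have no single-symbol probe set of their own here, so these 2 probe sets may read more than 1 gene each.

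The embryonic beta globin hbbe2, whose gene is used in embryonic red cells, was dim. Its 11 d signal was 29.7, 21.1 and 33.8 in transected samples and 51.9, 33.1 and 56.7 in sham samples, a log2 difference of -0.73 ± 0.31 (unadjusted p = 0.037, adjusted p = 1), lower in all 3 same-numbered pairs but with 1 transected array above the lowest sham array. Its differences at 4 h and 12 h were both -0.49 ± 0.31. The embryonic alpha globin hbae3 gave no usable level: 1 of its probe sets was at the floor on all 18 arrays and the other was above it on 5, highest at 37.5 and 21.5 on transected replicates 2 and 3 at 12 h.

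**Figure D2:**
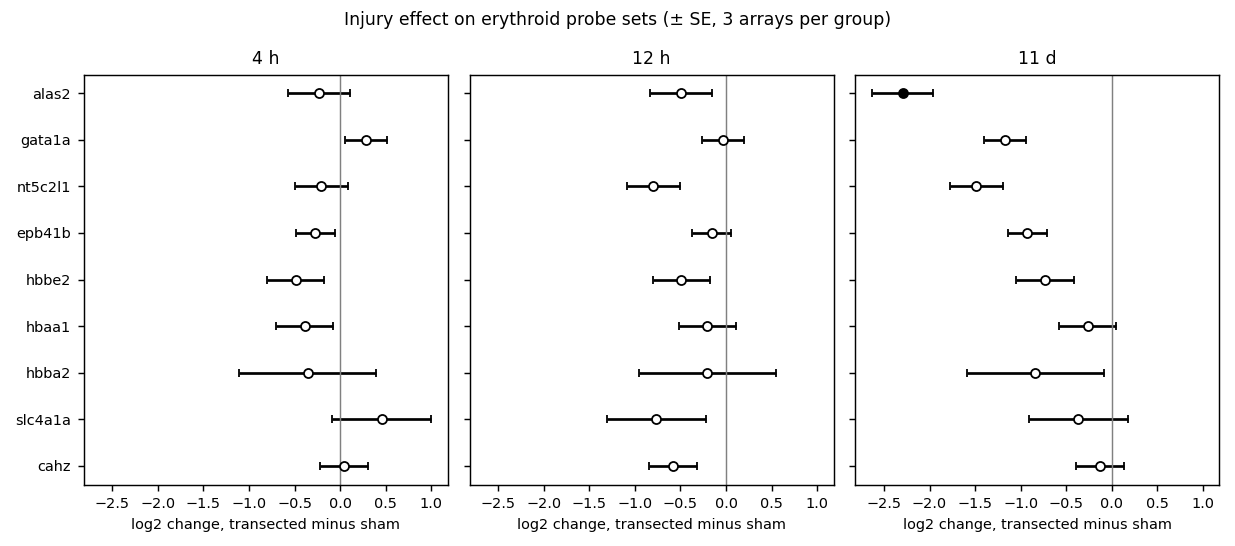
Log2 difference of transected minus sham (horizontal axis) for 9 erythroid probe sets (vertical axis) at 4 h, 12 h and 11 d, with bars of 1 SE from the limma model. The filled point has an adjusted p under 0.05. It is alas2 at 11 d, at -2.29, and the 2 adult globins lie at -0.26 and -0.84.

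The anion exchanger slc4a1a, known as band 3, trades chloride for bicarbonate across the red cell membrane. The 11 d signal was 142, 183 and 51.9 in transected samples and 175, 221 and 75.1 in sham samples, so replicate 3 was the lowest of each group and the groups overlapped. At 12 h it gave 26.03, 37.9 and 40.2 in transected samples and 66.0, 61.1 and 48.2 in sham samples, without overlap. The log2 difference was 0.46 ± 0.54 at 4 h, -0.76 ± 0.54 at 12 h and -0.37 ± 0.54 at 11 d, none called. At 11 d it was lower in all 3 same-numbered pairs (-0.30, -0.27 and -0.53), with an SE of 0.28 and an adjusted p of 0.88 under the replicate block.

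The carbonic anhydrase cahz speeds the conversion of carbon dioxide and bicarbonate in zebrafish red cells. At 12 h it gave 108, 146 and 154 in transected samples and 159, 196 and 263 in sham samples, without overlap. Its signal at 11 d was 257, 428 and 258 in transected samples and 415, 338 and 265 in sham samples, with wide overlap. The log2 difference was 0.040 ± 0.27 at 4 h, -0.58 ± 0.27 at 12 h (unadjusted p = 0.048, adjusted p = 1) and -0.13 ± 0.27 at 11 d.

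At the earlier times no erythroid probe set was called. At 4 h limma called 0 of 11, and 0 of 11 passed an unadjusted p under 0.05, where 0% of all probe sets were called and 2.27% passed unadjusted. For 1 of the 11, gata1a, all transected arrays lay above all sham arrays, against 2.67% of all probe sets. At 12 h limma again called 0 of 11, where 0.0258% of all were called, and 3 of 11 passed unadjusted (nt5c2l1 and cahz lower, the second hbae3 probe set higher), against 4.61% of all. For 3 of the 11 (slc4a1a, cahz and nt5c2l1) all transected arrays lay below all sham arrays at 12 h, against 4.72% of all.

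Whether the injury effect itself differed between times was tested for each probe set with limma's moderated F test, and 0 of 11 were called, where 0.0516% of all were. Unadjusted, 3 of 11 passed at 0.05, against 3.57% of all. These were alas2, gata1a and nt5c2l1, with limma adjusted p-values of 0.77, 0.78 and 1. The effect on alas2 at 11 d minus that at 4 h was -2.06 ± 0.48 (adjusted p = 0.64), and for hbaa1 it was 0.12 ± 0.44. Without sham replicate 3 at 11 d the test called 1 of 11, gata1a, and 11 of all 15502 probe sets. A different effect of injury on alas2 at 11 d and at the earlier times was therefore not established over all probe sets.

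The 11 d sham samples had the highest group level of both alas2 and gata1a. They also had the highest level of hbaa1, hbba2, hbbe2, slc4a1a, epb41b and cahz, but not of nt5c2l1. Of the 11 sham means 10 were higher at 11 d than at 12 h, against 42.9% of all probe sets. Against 4 h, 8 of 11 were higher, where 43.2% of all were. Among sham samples alone, no erythroid probe set was called across times, where 0.0258% of all were, and 4 of 11 passed unadjusted, against 7.05% of all: alas2, gata1a, slc4a1a and cahz. The sham level of alas2 at 11 d minus that at 12 h was 1.48 ± 0.34 (adjusted p = 0.18) and minus that at 4 h 1.25 ± 0.34 (adjusted p = 0.81). For gata1a the sham difference of 11 d minus 12 h was 1.34 ± 0.23 (adjusted p = 0.092), set against arrays at or near the floor, and that of 11 d minus 4 h was 0.55 ± 0.23 (adjusted p = 0.84), with sham replicate 3 at 11 d (25.8) below all 3 sham arrays of 4 h. The sham difference of 11 d minus 4 h was 1.35 ± 0.54 for slc4a1a, 0.64 ± 0.27 for cahz, 0.31 ± 0.31 for hbaa1 and -0.34 ± 0.29 for nt5c2l1, none called. Without sham replicate 3 at 11 d the F test over sham groups called 1 of 11, gata1a, and 15 of all 15502 probe sets.

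Among transected samples alone, nt5c2l1 and gata1a differed across times by the F test (adjusted p = 0.025 and 0.044), 2 of 11 called where 2.38% of all were. Transected nt5c2l1 fell to 63.8 at 11 d, against 196 at 4 h (-1.62 ± 0.29, adjusted p = 0.047, with 0.142% of all probe sets called lower). Transected gata1a fell to 16.3 at 12 h, against 34.6 at 4 h (-1.09 ± 0.23, adjusted p = 0.041, with 0.568% called lower), and since 12 h arrays lay at the floor this difference is limited by the floor. Transected cahz rose to 305 at 11 d, against 135 at 12 h (1.18 ± 0.27, adjusted p = 0.037, with 1.17% called higher), while its F test gave an adjusted p of 0.074. The transected difference of 11 d minus 4 h for alas2, -0.81 ± 0.34, was not called (adjusted p = 0.58).

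These calls were close to the threshold. With a replicate block the adjusted p was 0.072 for the F test and 0.064 for the difference in gata1a, 0.094 for the difference in nt5c2l1 and 0.067 for that in cahz. This block joined replicate numbers across times, unlike the block for differences between surgeries. With 1 array left out, gata1a passed the F test only without sham replicate 1 or sham replicate 3 at 11 d, and its adjusted p was 0.052 to 0.15 without any other array. The F test on nt5c2l1 lost its call without transected replicate 2 at 4 h (0.0502), transected replicate 1 at 11 d (0.053) or transected replicate 2 at 11 d (0.068). The difference of 11 d minus 4 h in nt5c2l1 passed only without transected replicate 3 at 4 h, transected replicate 1 at 12 h or sham replicate 1 at 11 d (0.055 to 0.16 without any other), and that of 12 h minus 4 h in gata1a only without sham replicate 1 or 3 at 11 d (0.051 to 0.14 without any other). The rise of cahz lost its call without transected replicate 1 or 2 at 12 h (0.15 and 0.092), transected replicate 1 or 2 at 11 d (0.071 and 0.14), replicate 3 at 4 h (0.053 for transected and 0.054 for sham) or sham replicate 2 at 12 h (0.054). The higher GAPDH ratios of the 12 h arrays stand beside every difference that involves 12 h.

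The globins were then set against alas2 within each array. Such a ratio leaves aside how much red cell RNA an array carried only if both genes scale with it, which was not tested. Over the 18 arrays hbaa1 spanned 2.64-fold and hbba2 9.98-fold, so the 2 globin signals did not scale alike, though their r was 0.84. The log2 ratio of alas2 over hbaa1 signal was -7.57 to -7.03 in transected samples and -5.81 to -4.92 in sham samples at 11 d, with no overlap and a difference of -2.03. Over hbbe2 the ratio differed by -1.56, again with no overlap. Over hbba2 it differed by -1.46, and the highest transected array, -3.52, lay just under the lowest sham array, -3.49. An exact two-sided permutation test of 3 against 3 arrays gave p = 0.1 for each of the 3 globins (0.1 after adjustment over the 3), the smallest p this design allows. Since alas2 by itself did not overlap at 11 d, its ratio over an unchanged gene would not overlap either. How often ratios over other probe sets separate was not tested, so these ratios do not set globins apart from other genes.

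At the earlier times these ratios overlapped between surgeries. The mean log2 ratio of alas2 over hbaa1 was -6.12, -6.75 and -7.36 in transected samples at 4 h, 12 h and 11 d, and -6.27, -6.46 and -5.33 in sham samples. The 2 surgeries lay close together at 4 h and 12 h and apart at 11 d, where the transected mean was the lowest and the sham mean the highest of the 6. On the signals as deposited and on arrays scaled to one trimmed mean, the ratio over hbba2 overlapped between the groups (exact permutation p = 0.2), while those over hbaa1 and hbbe2 did not (exact permutation p = 0.1 each).

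The ratio of alas2 to the other red cell genes was formed in the same way, with the same limit. Over slc4a1a the 11 d log2 ratio was -1.80 to -0.60 in transected samples and -0.37 to 1.29 in sham samples, without overlap. Over cahz it was -3.03 to -2.31 in transected samples and -0.99 to -0.25 in sham samples, again without overlap. Over epb41b it was -0.55 to 0.41 in transected samples and 1.23 to 1.89 in sham samples, also without overlap. Over nt5c2l1 the range in transected samples, -0.87 to -0.18, overlapped that in sham samples, -0.34 to 1.40.

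**Figure D3:**
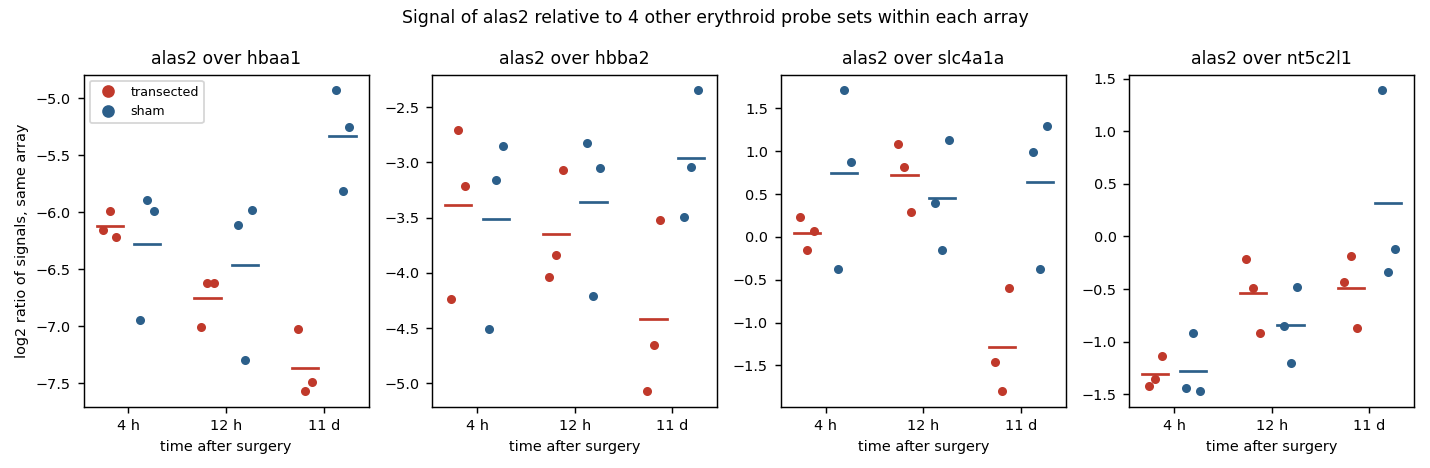
Log2 ratio of alas2 over hbaa1, hbba2, slc4a1a and nt5c2l1 signal within each array (vertical axes), by time after surgery, with transected arrays in red to the left of sham arrays in blue and bars at group means. At 11 d the mean ratio over hbaa1 is -7.36 in transected and -5.33 in sham samples, and the ratio over nt5c2l1 overlaps between the surgeries.

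Across the 18 arrays the erythroid genes fell into pairings that did not follow the split between globin and other genes. Pearson's r of log2 signals was 0.84 between hbaa1 and hbba2 and 0.84 between slc4a1a and cahz, and 0.58 to 0.63 between these 2 pairs. It was 0.52 to 0.70 among alas2, hbbe2, nt5c2l1 and epb41b, and 0.61 between alas2 and hbba2. Between epb41b and hbaa1, hbba2, slc4a1a and cahz it was -0.13 to -0.04. With group means subtracted, r was 0.13 to 0.54 among alas2, hbbe2, nt5c2l1 and epb41b, and 0.67 between alas2 and hbba2. All of these points share an array, its RNA amplification and its scaling, and these correlations are given as descriptions.

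With alas2 itself, 7 genes above the floor on all arrays were compared, with permutation p-values adjusted over the 7. The permutations treat the 18 arrays as exchangeable and so include differences between the 6 groups. The genes were also chosen with earlier results of these data known, so these p-values are no independent test. Pearson's r was 0.70 for hbbe2 (adjusted p = 0.0066, Spearman's rho 0.77, adjusted p = 0.0024), 0.61 for nt5c2l1 (0.017, rho 0.74, 0.0024), 0.61 for hbba2 (0.017, rho 0.42, 0.14) and 0.57 for epb41b (0.024, rho 0.53, 0.057). For cahz, hbaa1 and slc4a1a it was 0.46, 0.44 and 0.41 (adjusted p = 0.074, 0.076 and 0.091), with rho of 0.41, 0.33 and 0.27. Leaving out the 2 arrays farthest from the median of alas2, sham replicates 1 and 3 at 11 d, gave r of 0.59 for hbbe2, 0.82 for nt5c2l1, 0.45 for hbba2 and 0.46 for epb41b. With group means subtracted, r was 0.54 for hbbe2, 0.26 for nt5c2l1, 0.67 for hbba2 and 0.13 for epb41b. The relation of alas2 with epb41b and nt5c2l1 was thus mostly between groups, and that with hbba2 was at least as high within groups.

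**Figure D4:**
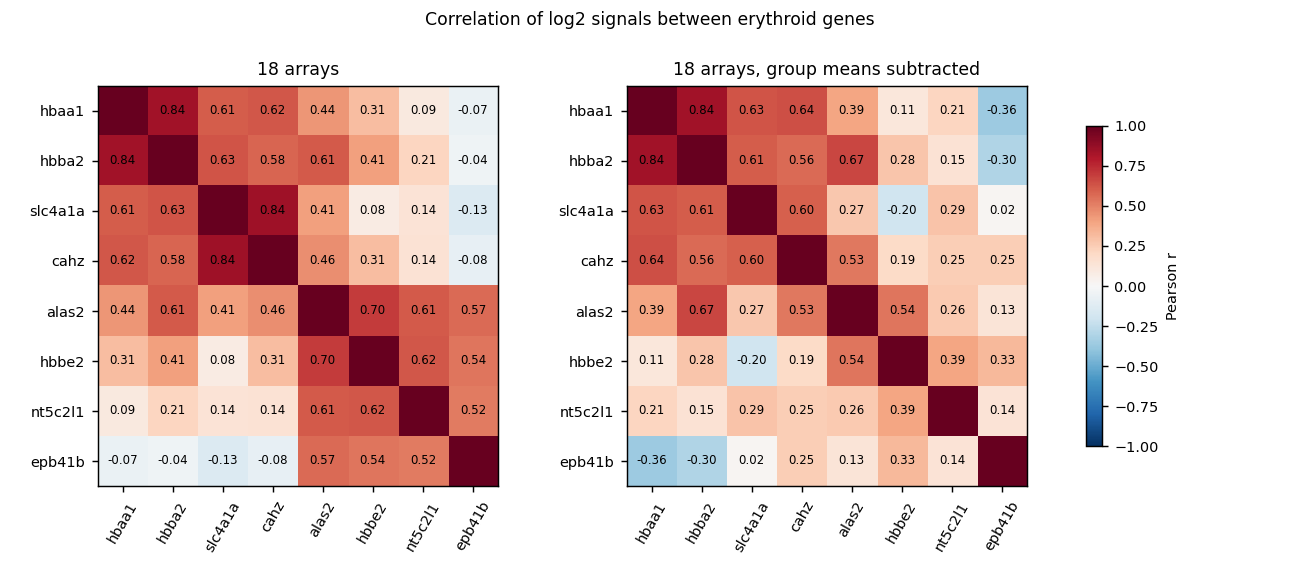
Pearson's r of log2 signals between 8 erythroid genes over 18 arrays (left) and after the mean of each of the 6 groups was subtracted (right), with colour from -1 (blue) to 1 (red). The pair hbaa1 and hbba2 has r of 0.84 in both panels, and alas2 with epb41b has 0.57 on the left and 0.13 on the right.

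Apart from the 10 genes themselves, which were left out of the ranking, the genes most like alas2 and hbaa1 were taken from 7948 probe sets above the floor on at least 12 arrays. The single-symbol genes with the highest r with alas2 over 18 arrays were mrpl45 (0.74), si:ch211-237l4.6 (0.73), fam50a, zgc:56095, si:dkey-25o16.4 and acta2 (0.72 each). With hbaa1 they were sox3 (0.81), lrrc17 (0.80), mlst8 (0.80), pls1, nlrx1 (0.78 each) and frrs1b (0.77), all below the r of 0.84 between hbba2 and hbaa1.

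The other measured genes of heme synthesis did not show the 11 d difference of alas2, though some were too dim to show it. In sham samples at 11 d fech was at 23.8, alad at 25.9 and urod at 37.8, and fech was above the floor on 6 arrays. A 4.90-fold fall from these levels would end below the floor of 16. Of 10 listed genes of the pathway 7 were measured, and at 11 d 1 was higher and 6 lower in transected samples, 1 called lower (alas2), with a median log2 change of -0.094, against 0 for all 8793 genes measured. Without alas2 the median was -0.064 and 0 of 6 passed an unadjusted p under 0.05. The widely expressed synthase alas1, which starts the same pathway outside red cells, gave 732 in transected samples and 739 in sham samples at 11 d (-0.015 ± 0.22). Among the rest were uros and cpox, later enzymes of the pathway, at -0.12 ± 0.26 and -0.10 ± 0.29, and alad, the second enzyme, at 0.10 ± 0.34. Most of these enzymes serve all cells of the tissue.

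Among erythroid regulators 19 of 29 listed genes were measured, 6 higher and 12 lower at 11 d, none called, with a median of -0.17. The lowest was klf1, a transcription factor that activates globin genes in mammals, at a geometric mean of 17.7 in transected samples and 39.7 in sham samples (-1.17 ± 0.47, adjusted p = 0.94), above the floor on 12 arrays. The related factor klf17 was at -0.92 ± 0.49, and jak2a, the kinase of erythropoietin signalling, at -0.61 ± 0.19 with no overlap (adjusted p = 0.62). At the other end stood the adaptor gene ldb1b at 0.71 ± 0.71 and cbfb, the partner of Runx factors, at 0.38 ± 0.25. For cbfb the 11 d sham samples were at the floor. Which cells of the tissue gave the signals of these regulators was not tested.

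Globins other than the 4 named above were few. Of 21 listed globin genes 8 were measured, 0 higher and 7 lower at 11 d, none called, with a median of -0.16. The 4 that are no erythroid genes of the set were ngb, the neuronal neuroglobin, at -0.15 ± 0.27, and cygb1, mb and hbbe3, which lay at or near the floor.

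Of the red cell membrane and skeleton list 8 of 22 genes were measured, 2 higher and 5 lower at 11 d, none called, median -0.35. The spectrin gene sptb was at -0.54 ± 0.27, the actin-bundling gene dmtn at -0.41 ± 0.24, and the water channel gene aqp1a.1 at 0.23 ± 0.46. Of the red cell enzyme list 12 of 18 were measured, 3 higher and 9 lower, none called, median -0.10. The peroxidase gene gpx1a was at -0.46 ± 0.29 at 11 d and at -1.30 ± 0.29 at 12 h (adjusted p = 0.40), with no overlap at either time.

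Iron and heme handling genes split in both directions. Of 40 listed genes 15 were measured, 7 higher and 8 lower at 11 d, none called, median -0.15. The ferritin heavy chain gene fthl30 was at 6526 in transected samples and 980 in sham samples (2.74 ± 0.61, adjusted p = 0.25), and the copper oxidase gene cp, which loads iron onto transferrin, at 44.9 in transected samples with sham samples at the floor (1.49 ± 0.38, adjusted p = 0.40), both without overlap. In transected samples across times fthl30 was called by the F test, though its probe set may read related ferritin genes. The iron exporter gene slc40a1 was at -0.58 ± 0.28, and ncoa4, which releases iron from ferritin, at -0.37 ± 0.21.

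**Figure D5:**
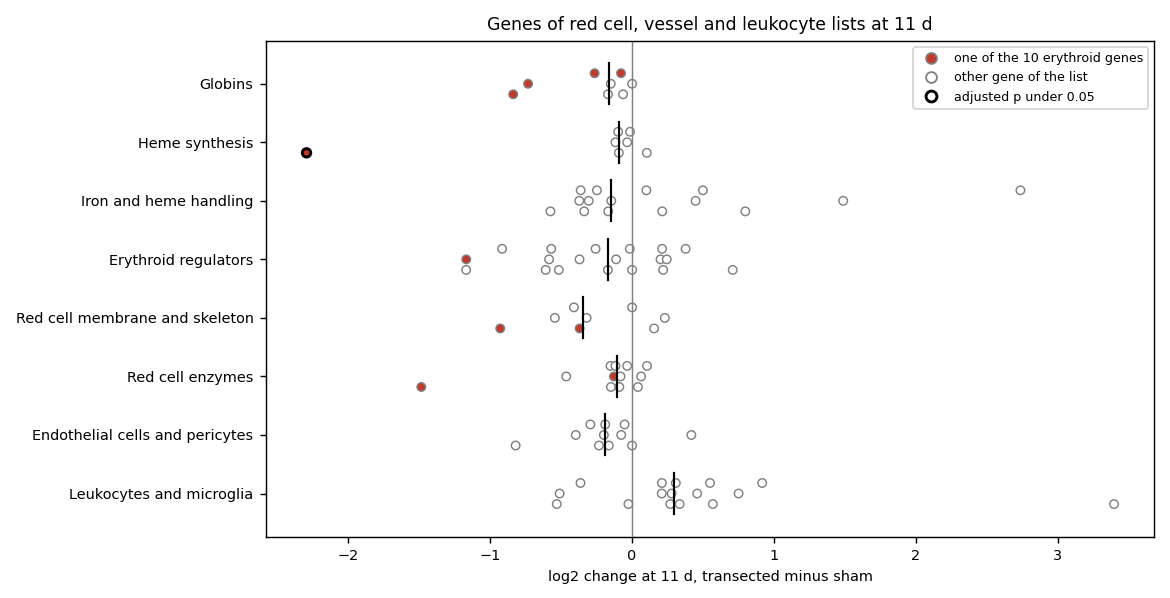
Log2 difference of transected minus sham at 11 d (horizontal axis) for genes of 8 lists (rows), with 1 point per gene, filled where the gene is one of the 10 erythroid genes and ringed in black where the adjusted p is under 0.05. Short lines are list medians. The ringed point is alas2 at -2.29, and the other 6 heme synthesis genes lie between -0.12 and 0.10. Of these, fech, alad and urod are dim.

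Of 6 lists of markers of other cells, 3 had summed signals that did not overlap between surgeries at 11 d: leukocytes, vessel cells and neurons. The sums are on the linear scale, so bright genes weigh most, and how often sums of any genes separate was not tested. The summed signal of 16 leukocyte and microglia markers was 10870 to 11687 in transected samples and 6738 to 8129 in sham samples at 11 d, with 12 higher and 4 lower, median 0.29, none called. Its brightest genes were apoc1 (0.75 ± 0.27), at 4734 in transected and 2815 in sham samples, and cd74a (0.57 ± 0.30). Furthest changed were the matrix protease mmp9 at 3.40 ± 0.58 (limma adjusted p = 0.074) and marco at 0.92 ± 0.39. The 4 lower genes were cxcr4b (-0.53 ± 0.45), lyz (-0.51 ± 0.76), mpx (-0.36 ± 0.55) and lcp1 (-0.026 ± 0.30). The summed signal of 11 endothelial and pericyte markers was 1446 to 1926 in transected samples and 2131 to 2488 in sham samples, with 1 higher and 9 lower, median -0.19, none called. Smooth muscle actin acta2, also a contractile marker of vessel walls, was at -0.82 ± 0.17 (adjusted p = 0.19), tagln at -0.29 ± 0.28 and the vessel receptor gene kdrl at -0.23 ± 0.34. The 1 higher gene was flt4, at 0.42 ± 0.30. For acta2 alone the level was 479 in transected and 846 in sham samples, beside median sums of the list of 1926 and 2238.

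The sums of 9 astroglia markers (19562 to 25129 in transected samples and 19555 to 22846 in sham samples), 5 oligodendrocyte markers (13042 to 24120 in transected samples and 17568 to 25575 in sham samples) and 4 thrombocyte markers (64 to 68.4 in transected samples and 64 to 119 in sham samples) overlapped at 11 d. The neuronal sum was 26011 to 29019 in transected samples and 20273 to 22498 in sham samples at 11 d, without overlap. Of its 13 genes 10 were higher and 3 lower, none called, median 0.25. The rise was uneven: gap43 was at 3961 in transected and 1636 in sham samples, and uchl1 at 4592 and 2976. By contrast snap25a was at 0.013 ± 0.14, stmn2a at 0.027 ± 0.13 and elavl3 at -0.23 ± 0.39. Of the 4 thrombocyte markers, thbs1b was at the floor on every array, gp1bb and itga2b were above it on 1 and 2 arrays, and f13a1b was at -0.51 ± 0.47. The summed signal of the 12 red cell markers, most of which is hbaa1, was 7354 to 12365 in transected samples and 9351 to 16236 in sham samples and overlapped. All 12 were lower at 11 d, with a median of -0.88, and the 4 of them outside the 10 genes (klf1, klf17, sptb and tmod4) had a median of -0.73, with none called. The part of these other cells in the erythroid differences was not tested.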

How the data were processed

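The deposited values, used as the authors gave them, were 1 probe-set signal intensity per array on a linear scale. Per the labels' protocols, RNA of the captured tissue was isolated on RNeasy Micro columns, amplified, and made into biotinylated cDNA for Affymetrix arrays. No source used here names a genome build or how probes were combined. With 2% of values trimmed at both ends, 16 arrays had a mean of 150.0 while replicate 3 at 4 h had 92.6 (transected) and 100.4 (sham).

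Signals of 15617 probe sets on 18 arrays were quantile normalized, floored at 16 and taken to log2. The 115 control probe sets were left out, leaving 15502, of which 10795 had a single gene symbol in GEO's platform annotation, 135 several and 4572 none. The model held 6 group means and was fitted by lmFit and eBayes of limma (version 3.58.1, R version 4.3.3), leaving 12 residual degrees of freedom beside 0.51 from the prior, with Benjamini-Hochberg adjustment over 15502 and a threshold of 0.05. Groups and replicate numbers came from sample titles. Correlations used SciPy 1.17.1, and their permutation p-values came from 100000 resamples. The permutation tests of ratios were exact. The model was tested on simulated data with independent noise between arrays, which does not cover deviations shared between samples. The number of arrays limits precision.

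All 11 probe sets of the 10 genes are given. From each pathway list the called genes and the 2 highest and 2 lowest at 11 d among genes above the floor on at least 9 arrays were to be named, of which some are given, with alas1 and klf1 in any case. From the endothelial, leukocyte and thrombocyte lists the 2 brightest and the 2 furthest changed were to be named. Lists use the probe set of each gene with the highest mean signal. The genes and lists were chosen with earlier results of these data known.

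Replicate numbers are shared by both surgeries. Deviations of same-numbered samples from their group means had correlations of 0.62, 0.38 and 0.26 for 4 h samples. They were 0.11, -0.01 and 0.14 for 12 h samples and 0.23, 0.48 and 0.64 for 11 d samples. The numbers were therefore read as pairs at 4 h and 11 d, and not at 12 h, only for describing same-numbered samples. At 11 d some unlike-numbered samples correlated as well. Transected replicate 1 with sham replicate 2 gave 0.34, and transected replicate 2 with sham replicate 1 gave 0.22, while the rest were negative. The model behind the calls and the permutation tests used no pairs. For differences between surgeries the replicate block joined same-numbered samples within each time, and it covered all times. For differences between times the block was replicate number over all arrays, a link across times that the labels do not give. No 2 arrays were identical, and replicates of a group correlated at 0.94 to 0.98. The alternatives were other scalings, floors, a filter on dim probe sets, limma's trend and robust options, fewer arrays and a replicate block.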

Additional observations from a re-analysis of the deposited data

How the results depend on the processing

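Of the calls, that on alas2 at 11 d was the only one between surgeries. Its log2 difference was -2.24 on signals as deposited and -2.23 without both replicate 3 arrays of 11 d. It stayed -2.29 with only the 6 arrays of 11 d, with the replicate block, without both replicate 3 arrays of 4 h and without the 6 arrays of 12 h, the last chosen after the data were seen, and leaving out 1 array gave -2.48 to -1.97. In these 6 settings its adjusted p was 0.14, 0.11, 0.58, 0.24, 0.084 and 0.17, and it was called with floors of 8 and 32, scaled arrays, dim probe sets left out and limma's trend and robust options. The count of erythroid probe sets called at 11 d was therefore 0 on signals as deposited, with only 6 arrays, with the block, without both replicate 3 arrays of 4 h and without 12 h. In these settings 8, 1, 6, 7 and 9 of all 15502 were called, against 7 in the main fit. With 1 array left out the erythroid count was 0 to 2. Without both replicate 3 arrays of 11 d the erythroid count was 1, gata1a (-1.58, limma adjusted p = 9.6e-04), where 26 of all 15502 were called. There the tests of unequal injury effects and of sham groups each called 1 as well, again gata1a, beside 17 and 26 of all. With 1 array left out these tests called 0 to 1 of the erythroid probe sets. Across transected groups the erythroid count was 2 in the main fit, where 369 of all 15502 were called. It was 0 on signals as deposited (142 of all). It was 1 with a floor of 32 (319 of all), with the replicate block (349) or without both replicate 3 arrays of 4 h (180). It was 3 without both replicate 3 arrays of 11 d (667 of all, slc4a1a added), and 0 to 2 with 1 array left out. The pathway lists held 0 called genes on signals as deposited and without both replicate 3 arrays of 4 h. The replicate block changed no other injury call. Signs turned only where nothing was called. At 4 h nt5c2l1 was 0.19 without both replicate 3 arrays of 4 h, and at 12 h gata1a was 0.12 with a floor of 8 and hbaa1 0.065 on signals as deposited and on scaled arrays. With 1 array left out, hbba2 ranged from -1.10 to 0.15, cahz from -0.16 to 0.17 and nt5c2l1 from -0.59 to 0.036 at 4 h. At 12 h gata1a ranged from -0.055 to 0.023, hbaa1 from -0.32 to -0.037, hbba2 from -0.42 to 0.19 and epb41b from -0.30 to 0.11, and at 11 d slc4a1a from -0.83 to 0.17 and cahz from -0.37 to 0.029. The cause of these moves was not tested. Signals as deposited shifted the median of all probe sets by 0.10 for sham samples between 4 h and 11 d, and by 0.12 and 0.15 for transected samples between 4 h and 12 h and between 4 h and 11 d. Probe sets near the floor, such as gata1a at 12 h and hbae3, have no order there.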
